A study of Mus musculus with 20 samples.

Results

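The major urinary protein (Mup) genes followed here in mouse liver RNA were Mup1, Mup2, Mup3, Mup6, Mup7, Mup10, Mup12, Mup17, Mup20 and Mup21. They were taken by name and are 10 of the 46078 genes of a liver read-count table, and all 10 had enough reads to be tested. Of the 10, 8 carry their own symbol in the table. Mup2 (ENSMUSG00000078688) and Mup17 (ENSMUSG00000096688) are both listed there as Gm2083 and were found by their Ensembl identifiers. The table holds 48 Mup genes and Mup pseudogenes in all, 38 of them outside this set of 10.

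Liver RNA was sequenced in 16 libraries, 4 per group, from mice of strain C57BL/6J, wild type, given saline (the normal group) and from db/db mice, whose leptin receptor is mutated and which become obese and diabetic. The db/db mice received saline (the model group), pioglitazone at 20 mg/kg (PGZ), an agonist of the nuclear receptor PPAR-gamma, or Dendrocalamus latiflorus leaf extract at 200 mg/kg (DLE) for 12 weeks. Every treated group therefore carries the db/db mutation, and no wild-type mouse received either agent. The sources used here give neither age nor sex, nor the background of the db/db line, and a group that received white tea extract was not analysed here. Each library is named by its group and number as in the labels, for example normal_346 or model_PGZ_328, and nothing says how cages, days or extractions fell over the groups, so that p-values measure the spread between these libraries only. Levels are in CPM, read counts scaled to library size, after TMM scaling, a correction for differences in RNA composition.

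Major urinary proteins are small lipocalins that hepatocytes secrete into the blood and the kidney passes into the urine, where they carry volatile pheromones. Their genes form a tandem array of recent copies on chromosome 4 and are among the most abundant transcripts of the adult male mouse liver. Pulsatile growth hormone acting through its receptor and STAT5B, together with androgens, thyroid hormone and glucocorticoids, is known to maintain their transcription.

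In the annotation of GRCm38 (GENCODE M21) the array spans chr4:59956804-62150863, 2.19 Mb that hold no other protein-coding gene. All 10 genes are protein-coding. Mup6 lies near one end of the array on the plus strand at chr4:59964294-60007274. The other genes lie on the minus strand in the order Mup7 (chr4:60066469-60070475), Mup2 (chr4:60135932-60154289), Mup1 (chr4:60498012-60501960), Mup10 (chr4:60578260-60582199), Mup12 (chr4:60737383-60741326), Mup17 (chr4:61591929-61595871), Mup20 (chr4:62050234-62054158), Mup3 (chr4:62083476-62087342) and Mup21 (chr4:62147932-62150863).

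The coding sequences fall into a block of 6 near-identical copies and 4 genes that stand apart. Mup1, Mup2, Mup7, Mup10, Mup12 and Mup17 share 98.7% to 99.6% of their coding bases over 15 pairs. Every pair that includes Mup3, Mup6, Mup20 or Mup21 shares 82.7% to 94.8% over 30 pairs, and the closest of these is Mup3 with Mup21. The last 60 coding bases, ending in the stop codon, are shown because they separate the 4 from the block: they are the same in all 6 near-identical genes, and Mup7 stands for them here. Capitals mark bases that differ from Mup7, of which there are 4 in Mup3, 7 in Mup6, 4 in Mup20 and 5 in Mup21.
Mup7: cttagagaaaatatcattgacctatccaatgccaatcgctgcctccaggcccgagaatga
Mup3: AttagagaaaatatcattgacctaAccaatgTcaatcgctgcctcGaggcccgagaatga
Mup6: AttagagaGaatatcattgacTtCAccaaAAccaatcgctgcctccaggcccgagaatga
Mup20: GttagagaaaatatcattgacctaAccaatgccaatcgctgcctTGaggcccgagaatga
Mup21: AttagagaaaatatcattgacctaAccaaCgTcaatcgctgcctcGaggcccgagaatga

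**Figure D1:**
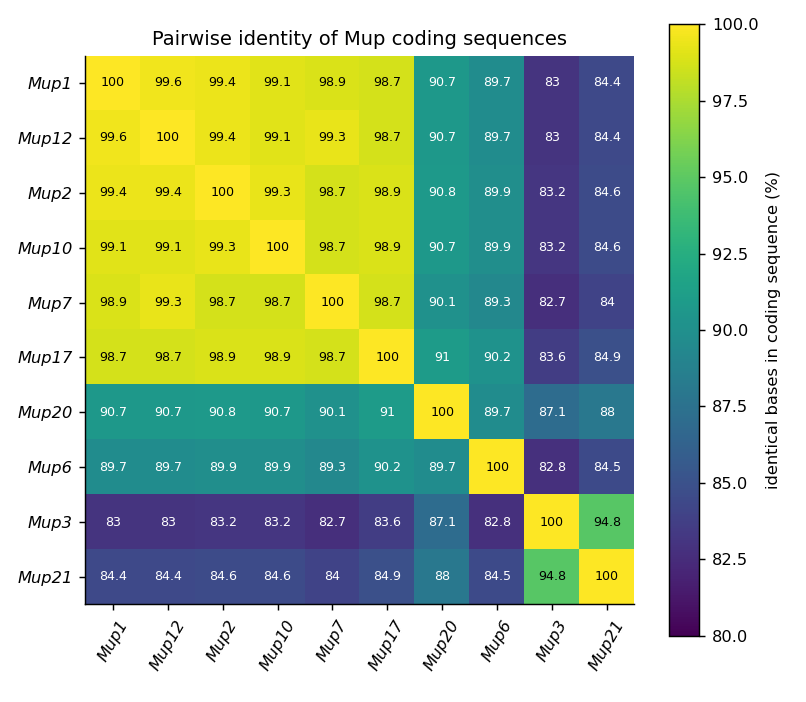
Percentage of identical coding bases for each pair of the 10 Mup genes, in GENCODE M21 transcripts of GRCm38. The 6 genes of the block share at least 98.7%, and no pair with Mup20, Mup6, Mup3 or Mup21 exceeds 94.8%.

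This likeness limits which counts belong to a single gene. A stretch of 100 bases taken from a transcript of Mup12 was found unchanged in another annotated Mup transcript at 77.5% of positions, and the share was 76.1% for Mup7, 75.5% for Mup2, 65.6% for Mup10, 59.4% for Mup17 and 55.7% for Mup1. It was 38.8% for Mup20, where the partner was the pseudogene Mup-ps19. It was 4.5% for Mup21, 2.23% for Mup3 and 0% for Mup6. The read length is not given in the sources used here, and with stretches of 50 bases the shares were 50.1% for Mup20, 19.3% for Mup21, 13.3% for Mup3, 4% for Mup6 and 61.6% to 86.7% for the others. How the authors' counting treated reads that match several genes is not given in the sources used here, so the split of reads among the 6 near-identical genes is uncertain, and their sum is given beside them.

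The 10 genes together supplied 2.8% ± 1.07 (SD, n = 4) of all reads in normal liver and 0.147% ± 0.0682 in the model group, 0.128% ± 0.0473 with PGZ and 0.108% ± 0.119 with DLE. Their summed level was 38772 CPM in normal_346, 40329 in normal_349, 13396 in normal_376 and 30370 in normal_409. In the model group it was 1645 CPM in model_327, 1201 in model_329, 828 in model_387 and 2377 in model_407. It was 1201, 1126, 679 and 1722 CPM in model_PGZ_328, model_PGZ_360, model_PGZ_404 and model_PGZ_408. With DLE it was 749 CPM in model_DLE_361, 2880 in model_DLE_373, 478 in model_DLE_378 and 267 in model_DLE_401. The lowest normal library lay above the highest db/db library, and the 3 db/db groups overlapped one another.

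The log2 difference of the summed level, on the log2(CPM + 0.5) scale, was -4.33 ± 0.49 (SE) for model minus normal, which is 20.1-fold lower. It was -4.65 ± 0.46 for PGZ minus normal and -5.28 ± 0.82 for DLE minus normal, and the last was -5.95 without model_DLE_373. No p-value is given for a sum over genes that were chosen together. As a sum, the 6 near-identical genes went from 17258 CPM ± 8679 in normal to 266 CPM ± 257 in the model group, a log2 difference of -6.39 ± 0.87 (83.6-fold lower). Mup3, Mup6, Mup20 and Mup21 together went from 13459 CPM ± 4811 to 1247 CPM ± 443, a log2 difference of -3.41 ± 0.42 (10.6-fold lower). Fold values of these sums compare group means on the log2 scale, so they differ from ratios of the mean CPM. The fold difference was larger for the near-identical genes, and the difference between the 2 values was not tested. Since these are whole pieces of liver, fewer hepatocytes and less RNA per hepatocyte cannot be told apart from a sum alone. The summed level of 9 hepatocyte marker genes had a median of 74873 CPM in normal liver and 47202 CPM in the model group, and the libraries overlapped. Of the 9 genes 1 was called lower, where 2.9% of all genes tested were. Such levels do not count hepatocytes, and the part of hepatocyte number in the Mup result was not tested. Alb, the albumin gene, had a mean of 41860 CPM ± 18120 in normal liver and 28354 CPM ± 5473 in the model group (log2 fold change -0.56, SE 0.40, edgeR adjusted p = 0.37).

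**Figure D2:**
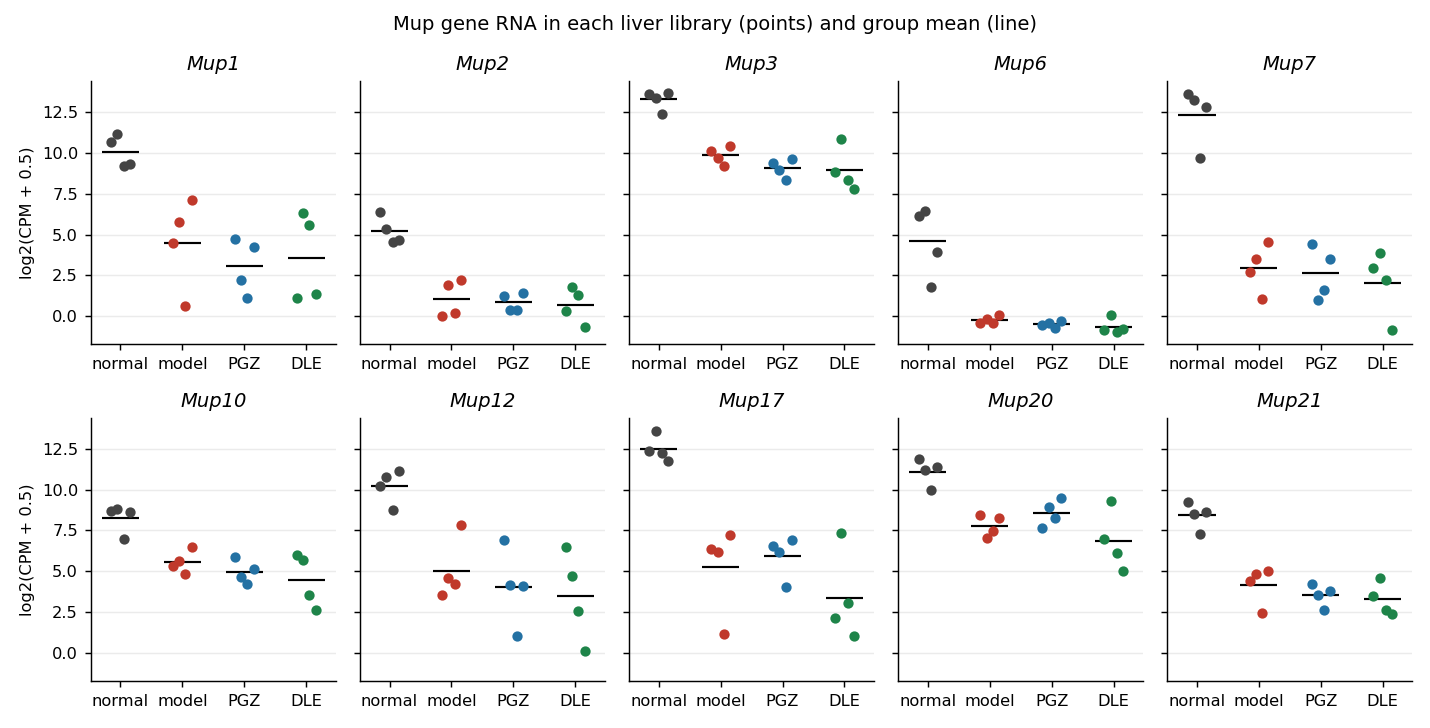
Level of each Mup gene as log2(CPM + 0.5) in each of the 16 libraries, with 4 points per group and a line at the group mean. For every gene the 4 normal libraries lie above all 12 db/db libraries.

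Per kilobase of exon, which corrects for gene length only, Mup3 had the highest mean level in normal liver, 9910 CPM per kb ± 3356 (SD, n = 4). Mup7 followed at 7378 ± 4899 and Mup17 at 7082 ± 4368, and the libraries of these 3 genes overlapped. Mup20 stood at 2639 ± 1211, Mup12 at 1509 ± 833, Mup1 at 810 ± 517, Mup21 at 565 ± 274 and Mup10 at 251 ± 107 CPM per kb, and each of these neighbours in the order overlapped with the next. Mup6 at 43.4 ± 40.7 and Mup2 at 32 ± 21.5 CPM per kb lay below every library of Mup10 and overlapped each other. Since the split of reads among the near-identical genes is uncertain, the places of Mup7, Mup17, Mup12, Mup1, Mup10 and Mup2 in this order are uncertain too.

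In the model group the order was different, with the same limit on the places of the near-identical genes. Mup3 stayed first, at 922 CPM per kb ± 324, and did not overlap with Mup20, which came next at 260 ± 113. Mup17 stood at 82.7 ± 65.4, Mup12 at 76.7 ± 116, Mup10 at 37.3 ± 19.8, Mup1 at 33.9 ± 38 and Mup21 at 31.9 ± 17.8 CPM per kb, with overlap between neighbours. Mup7, the gene with the next highest mean after Mup3 in normal liver, came eighth at 9.93 ± 8.71 CPM per kb. Mup2 stood at 1.58 ± 1.38 and Mup6 at 0.355 ± 0.145 CPM per kb.

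Model against normal sets db/db mice against wild-type C57BL/6J mice, and since the background of the db/db line is not given, the mutation and any difference of strain cannot be told apart. Of the 10 genes, 8 fell in the model group (edgeR's quasi-likelihood test, Benjamini-Hochberg adjusted p under 0.05 over 15744 genes tested), where 2.9% of all genes tested were called lower and 9.08% were called in either direction. All 10 had groups that did not overlap, with every model library below every normal library, a pattern seen in 7.13% of all genes tested. None was called higher, where 6.18% of all genes tested were. The median log2 fold change was -4.32 over the 10 genes and 0.07 over all genes tested. The same normal and model libraries underlie earlier results in which Mup genes were already seen to be lower, so that these counts describe the family and are not new support for its direction.

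Mup7 had the largest fold change of the 10. It stood at 12763 CPM in normal_346, 9638 in normal_349, 823 in normal_376 and 7262 in normal_409, against 6.08, 10.9, 1.57 and 22.5 CPM in model_327, model_329, model_387 and model_407. The highest normal library was 15.5 times the lowest, and even the lowest lay above every model library. This is a log2 fold change of -9.54 with an SE of 1.53 (edgeR adjusted p = 0.0021), and -10.28 without model_407, the highest model library.

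Mup17, which belongs to the same block of copies, stood at 5407, 12524, 4793 and 3535 CPM in normal_346, normal_349, normal_376 and normal_409. In the model group it stood at 81.4 CPM in model_327, 73.5 in model_329, 1.74 in model_387 and 150 in model_407, so model_387 was lower than the other model libraries. The log2 fold change was -6.42 (SE 1.51, adjusted p = 0.019 by edgeR), and without model_327 the adjusted p was 0.056.

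Mup1, whose protein has been tied to glucose metabolism in mice, and Mup12 missed the threshold although their groups did not overlap. Mup1 ranged from 586 to 2278 CPM in normal liver and from 1.03 to 138 CPM in the model group, and the log2 fold change was -4.58 ± 1.39 (SE; edgeR adjusted p = 0.052). Mup12 ranged from 432 to 2233 CPM in normal liver and from 11.1 to 232 CPM in the model group, and the log2 fold change was -4.30 ± 1.45 (SE; edgeR adjusted p = 0.074). In both genes model_407 was the highest model library. Without it the log2 fold changes were -5.65 for Mup1 and -6.33 for Mup12, and all 10 genes were called.

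Mup10 and Mup2 complete the near-identical block. Mup10 ranged from 128 to 446 CPM in normal liver and from 27.6 to 91 CPM in the model group. Its log2 fold change, the smallest of the 10, was -2.75 ± 0.68 (SE; edgeR adjusted p = 0.023). Its call was lost when any of normal_346, normal_349, normal_409, model_327 or model_387 was left out, with adjusted p between 0.052 and 0.065. Mup2 went from 42.8 CPM ± 28.7 to 2.11 CPM ± 1.84 (SD, n = 4), on the log2 scale a change of -4.34 ± 0.82 (SE; edgeR adjusted p = 0.0062).

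Among the genes that stand apart by sequence, Mup3 kept the most RNA. It stood at 12849, 10867, 5432 and 13190 CPM in normal_346, normal_349, normal_376 and normal_409, and at 1117, 828, 597 and 1395 CPM in model_327, model_329, model_387 and model_407. The 4 model libraries lay close together and well under normal_376, the lowest normal library. The log2 fold change was -3.43 (SE 0.61, adjusted p = 0.0041 by edgeR).

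Mup20 encodes darcin, the protein in male mouse urine that attracts females. It stood at 3747, 2357, 1018 and 2672 CPM in normal_346, normal_349, normal_376 and normal_409, and at 347, 129, 176 and 312 CPM in model_327, model_329, model_387 and model_407. As for Mup3, the groups were separate and normal_376 was the lowest normal library. The log2 fold change was -3.35 (SE 0.78, adjusted p = 0.017 by edgeR).

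Mup21 stood at 612, 363, 158 and 397 CPM in normal_346, normal_349, normal_376 and normal_409, and at 20.9, 28.2, 4.88 and 32.3 CPM in the model libraries in the order above, which on the log2 scale is a change of -4.15 ± 0.65 (SE; edgeR adjusted p = 0.0017). Mup6, the copy on the plus strand, stood at 69.5, 86.2, 2.93 and 14.9 CPM in the normal libraries. In the model group it was close to absent, at 0.243, 0.376, 0.248 and 0.552 CPM, which is 5 to 13 reads per library. The log2 fold change of Mup6 was -6.91 (SE 0.98, adjusted p = 0.00089 by edgeR), and -6.33 without normal_349. Mup6 shares no stretch of 100 bases with another Mup transcript, so its counts and those of Mup3 and Mup21 are the ones least open to reads of other copies.

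Libraries model_327 and model_387 were set apart in the model group by acute-phase RNA: Saa1, a serum amyloid gene of the acute-phase response, stood at 27764 and 10184 CPM there, against 1359 CPM in model_407, 94.8 CPM in model_329 and 23.2 to 131 CPM in normal liver. Without both libraries 4 of the 10 Mup genes were called lower in the model group, Mup3, Mup6, Mup7 and Mup21, and the same 4 were called in every one of the 18 fits of this comparison. Mup2 had an adjusted p of 0.056, Mup20 of 0.15, Mup17 of 0.17, Mup10 of 0.25, Mup1 of 0.33 and Mup12 of 0.45 in that fit of 2 model libraries. The log2 fold changes there stayed negative, at -3.54 for Mup2, -3.47 for Mup20, -5.87 for Mup17, -2.31 for Mup10, -3.74 for Mup1 and -3.45 for Mup12, and that of Mup7 was -8.83.

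Among the cell-type markers, most genes of Kupffer cells, the resident macrophages of the liver, were called higher in the model group, and the summed level of each list overlapped between the groups. The summed level of 9 hepatocyte genes, none of them at 0 in any library, was 41108 to 99231 CPM in normal liver and 32617 to 50516 CPM in the model group, and 1 of the 9 was called lower. The 8 Kupffer cell genes, none at 0 in any library, summed to 60.2 to 195 CPM in normal liver and 147 to 1519 CPM in the model group, with 7 called higher. The 8 neutrophil genes summed to 1.21 to 4.74 CPM in normal liver, where Ngp and Ltf had no read in any library, and to 1.99 to 2316 CPM in the model group, with 2 of the 7 tested called higher. None of the 6 endothelial, 6 stellate cell and 5 cholangiocyte genes was called. Their sums were 98.6 to 109, 84.7 to 121 and 76.4 to 91.1 CPM in normal liver and 63.1 to 148, 77.8 to 189 and 66.4 to 950 CPM in the model group. Over all genes tested 2.9% were called lower and 6.18% higher. The part of cell composition and acute-phase state in the Mup result was not tested. Library totals were 16922833 to 25119799 reads, and Pearson's r between libraries of a group, across genes, was 0.959 to 0.987 in the normal group, 0.877 to 0.975 in the model group, 0.958 to 0.985 with PGZ and 0.946 to 0.972 with DLE.

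Pioglitazone against the db/db mice given saline asks whether the drug moved these genes. None of the 10 was called, where 0.0127% of all genes tested were called, and in all 10 the PGZ and model libraries overlapped, whereas 2.01% of all genes tested were lower and 2.87% higher without overlap. At an unadjusted p under 0.05 the count was also 0 by edgeR, and DESeq2 called 0. By limma voom with quality weights 4 were called lower, Mup1, Mup10, Mup12 and Mup21, and 6 had an unadjusted p under 0.05. The log2 fold changes were negative for 9 of the 10, where 59.6% of all genes tested were negative, with a median of -0.68 over the 10 genes and -0.09 over all genes.

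Mup20 was the exception in sign. It stood at 201 CPM in model_PGZ_328, 497 in model_PGZ_360, 306 in model_PGZ_404 and 718 in model_PGZ_408, a mean of 431 CPM ± 227 against 241 CPM ± 105 in the model group. These libraries overlapped the model group, and the log2 fold change of 0.84 (SE 0.71, 95% interval -0.56 to 2.24, edgeR adjusted p = 0.72) did not pass. Mup3 stood at 662, 498 and 787 CPM in model_PGZ_328, model_PGZ_360 and model_PGZ_408 and was lowest in model_PGZ_404, with 7433 reads, giving a mean of 569 CPM ± 200 against 984 CPM ± 347, and its log2 fold change was -0.79 (SE 0.56, 95% interval -1.89 to 0.30, edgeR adjusted p = 0.66). Of the near-identical genes, Mup1 and Mup7 had wider intervals, from -4.56 to 0.37 and from -2.32 to 1.89. Changes of several-fold could not be detected in Mup1 and Mup7 at this spread.

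Against normal liver all 10 genes were called lower with PGZ, where 6.08% of all genes tested were called lower and 12.2% in either direction. The log2 fold changes ran from -9.75 for Mup7 (SE 1.54, edgeR adjusted p = 0.0012) and -7.65 for Mup6 (SE 1.03, edgeR adjusted p = 0.00037) to -2.51 for Mup20 (SE 0.75, edgeR adjusted p = 0.04). No PGZ library overlapped a normal library for any of the 10, as for 15.7% of all genes tested. Mup12 and Mup20 had the weakest calls: Mup12 kept its call with only model_PGZ_328 left out, where its log2 fold change was -6.89 against -5.18 with all libraries, and Mup20 with only normal_376 left out, and their adjusted p otherwise lay between 0.053 and 0.11. Without model_PGZ_328 the log2 fold changes of Mup1 and Mup7 were -7.31 and -10.59, against -6.67 and -9.75 with it, and without normal_349 that of Mup6 was -7.07. These comparisons share their normal libraries with model against normal. The stellate cell markers summed to 128 to 540 CPM with PGZ against 84.7 to 121 CPM in normal liver, with 3 of 6 called higher. The endothelial markers summed to 125 to 180 CPM against 98.6 to 109 CPM, with 2 of 6 called higher. Neither of these sums overlapped. Of the Kupffer cell markers 3 of 8 were called higher, and of the hepatocyte markers 2 of 9 were called lower, and both sums overlapped. Over all genes tested 6.15% were called higher and 6.08% lower. The part of these cell types in the Mup result was not tested.

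**Figure D3:**
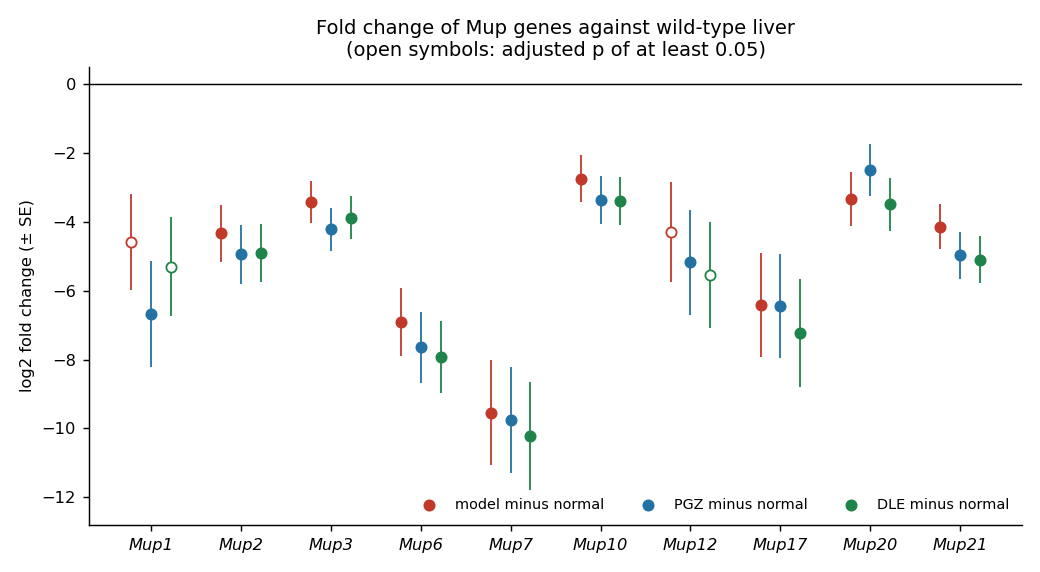
Log2 fold change of each Mup gene against the normal group with its standard error, from 1 edgeR fit to 16 libraries, for the model, PGZ and DLE groups, which share the 4 normal libraries. Filled symbols were called, and open symbols, Mup1 and Mup12 in the model and DLE groups, were not. Mup7 has the lowest value in each group, from -10.23 to -9.54.

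The bamboo leaf extract against the db/db mice given saline gave no call either. None of the 10 genes was called by edgeR, where 0% of all genes tested were called, none had an unadjusted p under 0.05, and DESeq2 and limma voom each called 0, although 8 had an unadjusted p under 0.05 by limma voom. The DLE and model libraries overlapped in all 10, whereas 1.09% of all genes tested were lower and 1.6% higher without overlap. All log2 fold changes were negative, where 51.8% of all genes tested were, with a median of -0.71 over the 10 genes and -0.02 over all genes. The lowest of them was that of Mup12, -1.25 ± 1.29 (SE; edgeR adjusted p = 0.68), and the 95% interval of Mup3 was -1.54 to 0.64. PGZ and DLE were set against the same 4 model libraries, so the negative signs in both comparisons are not separate observations.

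Within the DLE group model_DLE_373 was the highest library for most of the genes. Mup3 stood at 449 CPM in model_DLE_361, 1886 in model_DLE_373, 324.9 in model_DLE_378 and 221 in model_DLE_401. Mup20 stood at 124, 637, 70.4 and 31.6 CPM in the same order, and Mup17 at 3.86, 161, 7.78 and 1.51 CPM. In each of these genes model_DLE_373 lay above the highest model library. The other DLE libraries lay below the lowest model library for Mup3 and Mup20, and for Mup17 they lay near model_387, at 1.74 CPM.

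Mup7 fell to 0.042 CPM in model_DLE_401, which is 1 read, against 4.17 to 14 CPM in the other DLE libraries. Mup6 had 0 reads in model_DLE_378, which allows up to 0.153 CPM (3 reads, counting error only), and 0.535 CPM in model_DLE_373. Mup12 ranged from 0.588 to 87.8 CPM and was highest in model_DLE_361.

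Against normal liver 8 of the 10 genes were called lower with DLE, where 1.7% of all genes tested were called lower and 3.54% in either direction. Mup1 (edgeR adjusted p = 0.057) and Mup12 (edgeR adjusted p = 0.063) were not called. No DLE library overlapped a normal library for any of the 10, as for 6.22% of all genes tested. The log2 fold changes of the called genes ran from -10.23 for Mup7 (SE 1.57, edgeR adjusted p = 0.0013) to -3.41 for Mup10 (SE 0.70, edgeR adjusted p = 0.011).

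The size of the DLE values rests in part on model_DLE_373. With that library left out the log2 fold change against normal went from -7.24 to -10.55 for Mup17, from -7.93 to -9.69 for Mup6, from -3.50 to -5.02 for Mup20, from -3.88 to -5.00 for Mup3, from -10.23 to -10.97 for Mup7, from -5.10 to -5.77 for Mup21 and from -4.91 to -5.54 for Mup2. The call of Mup20 was lost without normal_346, model_DLE_361 or model_DLE_378, with adjusted p of 0.053, 0.056 and 0.057, and Mup12 was called without model_DLE_361. By limma voom Mup6 had an adjusted p of 0.12.

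None of the 10 genes was called between DLE and PGZ by edgeR, where 0.00635% of all genes tested were called, with 0 at an unadjusted p under 0.05 and 0 called by DESeq2 or limma voom. The largest difference was a log2 value of 1.36 for Mup1 (SE 1.23, 95% interval -1.05 to 3.78), DLE minus PGZ, and Mup20 had a 95% interval of -2.40 to 0.41. All 10 overlapped, whereas 4.19% of all genes tested were lower and 4.24% higher without overlap. The summed level differed by a log2 value of -0.63 ± 0.78, with means of 1094 CPM ± 1207 for DLE and 1182 CPM ± 427 for PGZ, and by -1.29 without model_DLE_373. An edgeR fit with the 10 genes summed to 1 row gave -0.11 ± 0.60 (SE).

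Mup3 took a larger share of the Mup reads in db/db than in normal liver. It held 36% ± 7.46 (SD, n = 4) of the reads of the 10 genes in normal liver, 66.9% ± 5.75 in the model group, 48.3% ± 4.8 with PGZ and 69% ± 9.65 with DLE. Mup7 held 21.7% ± 11.2 in normal liver and at most 1.71% in any db/db library. Mup17 held 23.1% ± 12.1 in normal liver, 4.4% ± 2.86 in the model group, 5.87% ± 2.43 with PGZ and 2.07% ± 2.39 with DLE. These are shares of reads, not corrected for gene length, and no test was made of them.

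**Figure D4:**
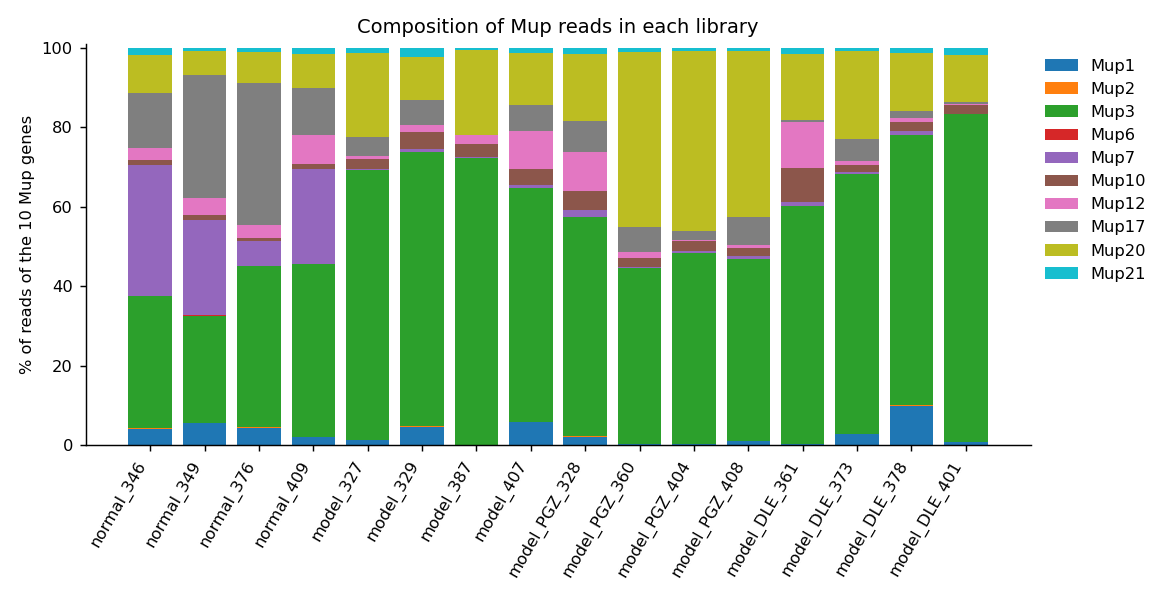
Share of the reads of the 10 Mup genes that each gene held, in percent, for each of the 16 libraries. Mup7 holds 6.15% to 32.9% in the normal libraries and at most 1.71% elsewhere, and Mup20 holds 16.8% to 45.1% in the PGZ libraries.

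Mup20 took a larger place in most PGZ libraries, a pattern picked out after its values were seen and therefore given without a test. There were 0.997, 0.937 and 0.913 Mup20 reads per Mup3 read in model_PGZ_360, model_PGZ_404 and model_PGZ_408, and 0.304 in model_PGZ_328. The ratio was 0.187 to 0.292 in the normal group, 0.156 to 0.31 in the model group and 0.143 to 0.338 with DLE. Library model_PGZ_328 was also the PGZ library with the most Saa1 RNA, at 4564 CPM against 73.4 to 279 CPM in the others. The model group ran the other way. Its libraries with the most Saa1 RNA, model_327 and model_387, had ratios of 0.31 and 0.294, against 0.224 in model_407 and 0.156 in model_329. A link between Saa1 and the ratio was not tested. Across the 12 db/db libraries Mup20 had a median Pearson's r of 0.50 with the other 9 genes on the log2 scale (0.27 to 0.75), whereas the 15 pairs of the near-identical block had a median of 0.73 (0.45 to 0.91). These values are descriptive, since the libraries share groups and the block may share reads.

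**Figure D5:**
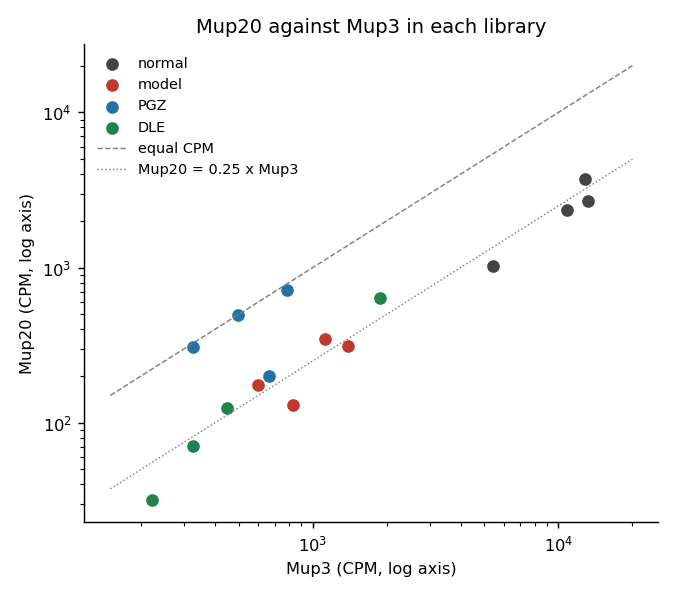
Level of Mup20 against Mup3 in CPM, on log axes, for each of the 16 libraries, with lines at equal level and at 0.25 Mup20 reads per Mup3 read. The PGZ libraries other than model_PGZ_328 lie near the line of equal level, at 0.913 to 0.997 Mup20 reads per Mup3 read, and model_PGZ_328 lies with the other groups, at 0.143 to 0.338.

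Most of the other Mup genes and pseudogenes that could be tested were also called lower. Among them only the pseudogene Mup-ps22 lies outside the array, on chromosome 11. Of the 38 other Mup genes and pseudogenes, 24 had enough reads to be tested, 15 were called lower in the model group and none higher, with a median log2 fold change of -3.76, where 2.9% of all genes tested were called lower and 6.18% higher, with a median of 0.07. The most abundant were Mup11, with group means of 4246 CPM in normal, 65.9 in model, 31.8 with PGZ and 28.9 with DLE, then Mup13 with 1376, 60.9, 67 and 41 CPM and Mup14 with 1152, 38, 43.1 and 34.2 CPM. None of the 24 was called with either treatment against the model group. Transcripts of Mup11, Mup13 and Mup14 share stretches with some of the 10 genes, so these calls are not separate observations. Counted over all Mup genes and pseudogenes, the summed level was 42148 CPM ± 15790 in normal and 1898 CPM ± 948 in the model group, a log2 difference of -4.51 ± 0.49. This sum includes the 10 genes, which held a mean of 71.8% of its reads in normal and 81.7% in the model group, so its likeness to their own sum is built in.

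Of the 8 genes tested next to the array, none was called lower and 1 was called higher, where 2.9% and 6.18% of all genes tested were. At that share a set this small would often hold none called lower. Of the 5 nearest protein-coding genes on each side, 8 of 10 were tested, with a median log2 fold change of 0.05 for model minus normal. Slc31a2, a copper transporter gene, rose from 6.73 CPM ± 1.11 to 18.6 CPM ± 16.8 (log2 fold change 1.47, SE 0.42, edgeR adjusted p = 0.039). None of the 8 was called in any of the other 5 comparisons, where 0% to 12.2% of all genes tested were called in either direction.

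Genes of the growth hormone and sex hormone pathway were read in the same libraries. Of 20 genes, 2 were called lower in the model group, 1 was called higher and 17 were not called, with a median log2 fold change of -0.24. Over all genes tested 2.9% were called lower, 6.18% higher and 9.08% in either direction. The growth hormone receptor gene Ghr had means of 421 CPM ± 86 in normal and 310 CPM ± 76.7 in the model group (edgeR adjusted p = 0.25), and Stat5b, which encodes the transcription factor that the receptor activates, 72.7 CPM ± 10.1 and 51 CPM ± 13.3 (edgeR adjusted p = 0.12). Socs2, a feedback inhibitor that growth hormone induces, fell from 71.7 CPM ± 30.1 to 11.5 CPM ± 3.83 (log2 fold change -2.64, SE 0.47, edgeR adjusted p = 0.0044).

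Bcl6, a repressor of STAT5 target genes, fell from 118 CPM ± 75.2 to 39.7 CPM ± 4.75 (log2 fold change -1.58, SE 0.39, edgeR adjusted p = 0.022), and Socs1, a feedback inhibitor of cytokine signalling, rose from 0.819 CPM ± 0.363 to 14.7 CPM ± 17 (edgeR adjusted p = 0.037). Igf1, the growth factor that growth hormone induces in liver, had means of 1106 CPM ± 155 in normal and 560 CPM ± 73.1 in the model group, without overlap (log2 fold change -0.98, SE 0.31, edgeR adjusted p = 0.056), and was called lower with PGZ against normal (485 CPM ± 115, edgeR adjusted p = 0.021). Against normal, PGZ had 6 of the 20 called lower, where 6.08% of all genes tested were, and DLE had 2, where 1.7% were, and neither treatment had a call against the model group.

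Another 10 genes known for higher expression in male mouse liver had 8 called lower in the model group, 8 with PGZ and 7 with DLE against normal, and 0 with either treatment against the model group. Over all genes tested, 2.9%, 6.08% and 1.7% were called lower in the 3 comparisons with normal. Cyp7b1, an oxysterol hydroxylase, stood at 302 CPM ± 123 in normal and at 9.27 ± 4.61, 6.47 ± 1.76 and 8.78 ± 2.2 CPM in the model, PGZ and DLE groups. Elovl3, a fatty acid elongase, stood at 103 CPM ± 48.5 in normal and at 8.7 ± 8.66, 14.4 ± 5.79 and 5.03 ± 2.6 CPM. Both were lower in every db/db group than in normal, as the Mup genes were.

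Other lipocalins did not fall as a set in the model group. Of 12 names, 10 were tested in model against normal: 3 were called higher, none lower, and the median log2 fold change was 0.30, where 6.18% of all genes tested were called higher and their median was 0.07. Against normal, PGZ had 3 of the 10 called higher and 2 lower, where 6.15% and 6.08% of all genes tested were. DLE had none called against normal, where 3.54% of all genes tested were called in either direction. The summed level of the lipocalins was 39842 CPM in model_327 and 24480 CPM in model_387, the libraries with the most Saa1 RNA, but 6342 CPM in model_329 and 8611 CPM in model_407, against 3346 to 7584 CPM in normal liver. Lcn2, which encodes the siderophore-binding lipocalin of the acute phase, went from 12.1 CPM ± 4.7 to 4187 CPM ± 5527 (edgeR adjusted p = 0.011), and the orosomucoid genes Orm2 and Orm3 were also higher (edgeR adjusted p = 0.013 and 0.0094). Obp2a, also known as Lcn13, had means of 17.7 CPM ± 8.67 in normal and 4.18 CPM ± 6.14 in the model group (edgeR adjusted p = 0.23). It stood at 13.3 CPM in model_387 and 0.161 to 1.87 CPM in the other model libraries, against 6.41 to 25.5 CPM in normal liver. With PGZ it stood at 0.22 to 5.53 CPM and with DLE at 0.042 to 4 CPM.

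By likeness of profile, the genes closest to the summed level of the 10 Mup genes over 16 libraries included Nudt7, a peroxisomal coenzyme A hydrolase gene (Pearson's r 0.968), Sdr9c7, a short-chain dehydrogenase gene (0.961), Cyp2c67, a cytochrome P450 gene (0.948), and Cyp7b1 (0.933), on the log2 scale among 13562 genes. Nudt7 went from a mean of 787 CPM in normal to 122 in model, 109 with PGZ and 81.8 with DLE. Over the 12 db/db libraries alone the closest were Lypla1 (0.871), Coq10b (0.866), Fn3krp (0.865), Ndufaf1 (0.864) and Sgpp1 (0.859), none of which was among those closest over 16 libraries. The values over 16 libraries reflect the gap between normal and db/db liver that these libraries share, and both sets of values are descriptions of the top of a long ranking.

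Promoters were available for 7 of the 10 genes, Mup2, Mup3, Mup6, Mup7, Mup10, Mup17 and Mup21, from RefSeq on GRCm38.p6, as 250 bases before and 50 after the annotated start. They repeat the split seen in the coding sequences. Pairs within the near-identical block share 94.3% to 98.3% of aligned bases. Pairs that include Mup3, Mup6 or Mup21 share 73.7% to 92.9%. Mup2 and Mup17 share 98.3% of aligned bases, Mup3 and Mup21 share 92.9%, and Mup17 shares 76.9% with Mup3 and 74.6% with Mup21. The promoter of Mup6 shares 88.7% with that of Mup3 and 88.6%, over 201 aligned bases, with that of Mup7. The coding sequences of Mup6 and Mup3 share 82.8%. Mup7 shares 97.6% with Mup2 and 84.1% with Mup3, but over only 166 and 220 aligned bases. The promoter of Mup17 is shown for the near-identical block and those of Mup3 and Mup21 for the genes set apart. Capitals mark matches to AGAACA, the hexamer in sites for androgen and glucocorticoid receptors, read on either strand (TGTTCT on the strand shown).
Mup17, chr4:61595783-61596082, minus strand: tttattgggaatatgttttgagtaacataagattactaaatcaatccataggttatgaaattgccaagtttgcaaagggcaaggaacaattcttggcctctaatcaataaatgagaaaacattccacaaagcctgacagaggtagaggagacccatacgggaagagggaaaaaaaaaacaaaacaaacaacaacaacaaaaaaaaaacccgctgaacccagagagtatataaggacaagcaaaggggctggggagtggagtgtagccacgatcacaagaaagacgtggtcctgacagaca
Mup3, chr4:62087268-62087567, minus strand: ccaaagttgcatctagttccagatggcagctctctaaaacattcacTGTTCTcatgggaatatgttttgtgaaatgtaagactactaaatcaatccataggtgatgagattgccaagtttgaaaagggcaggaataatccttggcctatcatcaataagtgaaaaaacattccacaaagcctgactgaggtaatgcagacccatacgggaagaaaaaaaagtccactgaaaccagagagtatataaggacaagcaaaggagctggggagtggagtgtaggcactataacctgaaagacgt
Mup21, chr4:62150792-62151091, minus strand: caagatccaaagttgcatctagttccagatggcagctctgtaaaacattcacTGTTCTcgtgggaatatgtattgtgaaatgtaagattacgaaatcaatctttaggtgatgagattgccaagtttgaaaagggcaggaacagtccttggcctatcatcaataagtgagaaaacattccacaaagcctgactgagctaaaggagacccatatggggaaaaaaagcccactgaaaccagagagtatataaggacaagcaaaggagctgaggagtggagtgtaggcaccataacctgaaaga

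AGAACA was present on either strand in 2 of the 7 promoters, Mup3 and Mup21, and in 19% of 32851 promoters of the same length. In both genes the match lies just before the letters gggaatatg. The windows of Mup2, Mup10 and Mup17 begin at or shortly before those letters, so the matching place was not fully searched in them. The windows of Mup6 and Mup7 cover it and hold no match. TTCNNNGAA, the letters of a STAT site, was present in 0 of the 7 and in 8.3% of the 32851, searched in the same way. The motifs cannot overlap in these windows, since only one of them was found. A match here is a description of letters and says nothing of binding.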

How the data were processed

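Per the labels, liver total RNA was extracted with TRIzol, treated with DNase and made into Illumina libraries. The table deposited by the authors gives raw read counts, 1 row per Ensembl gene. The build was GRCm38, and the tools were HISAT2 2.1.0, StringTie 1.3.3b, CASAVA 1.8.2, DESeq2 1.28.0 and FastQC 0.11.5, per the submitters' processing notes, which give no role or order. The annotation, strand setting, read length and handling of reads matching several genes are not given in the sources used here. GENCODE M21 matched 45143 of 46078 genes, and unmatched genes held 0.064% of reads.

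The tests used edgeR 4.0.16 in R 4.3.3. After filterByExpr (15744 genes kept) and TMM scaling, glmQLFit (robust) was run on 4 groups of 4 libraries. Tests are two-sided, adjusted by Benjamini-Hochberg over all genes tested, and called under 0.05. SE and 95% intervals of fold changes are approximate values from that fit. Sums are in CPM, compared as log2(CPM + 0.5). The procedure was tested on simulated counts with 200 changed genes. Alternatives were RLE, upper quartile and library total scaling, no filter, a filter of 200 reads and 1 CPM in 4 libraries, fits limited to the 2 groups in question, DESeq2 1.42.0, limma 3.58.1 (voom), each library left out, and the model group without model_327 and model_387. Sequences were compared with Biopython 1.88, and figures were drawn with Python 3.11.15 and matplotlib 3.10.9.

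The Mup genes, gene lists and named-gene rule were chosen with earlier results of these data known. The rule names the 10 genes, the 3 most abundant other Mup genes, called neighbours of the array, up to 6 called members of each list and a few fixed ones, of which not all are described, and the 5 most similar genes, of which 1 is not reported here. The sums over 6 and 4 genes, the Mup20 to Mup3 ratio and Saa1 were chosen after values were seen. Columns of 4 libraries held no values.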

Additional observations from a re-analysis of the deposited data

Results flagged for a closer look

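In each group of 4 libraries a library was picked out when its gap to the nearest of the others, as a share of the group's range, exceeded Dixon's 95% critical value. With 56 groups of values checked, chance alone picks out about 1 in 20 where values are normally distributed. These values are in CPM without a log, so the rate here is not known, and the values of related genes are not independent.

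Library model_DLE_373 stood above the other DLE libraries for Mup3, at 1886 CPM against 221 to 449, for Mup20, at 637 CPM against 31.6 to 124, for Mup17, at 161 CPM against 1.51 to 7.78, and for Mup6, at 0.535 CPM against 0 to 0.0841. The sum of Mup3, Mup6, Mup20 and Mup21 was 2547 CPM there, against 257 to 584 in the others. Its Saa1 level was 54.9 CPM, within the range of normal liver.

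Mup12 stood at 232 CPM in model_407, against 11.1 to 23.3 in the other model libraries, and at 118 CPM in model_PGZ_328, against 1.54 to 17.1 in the other PGZ libraries. Mup10 stood at 128 CPM in normal_376, against 402 to 446 in the other normal libraries.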

How the results depend on the processing

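No paired analysis was possible because the groups share no replicate number. Mup members called moved past 1.5 times in only 2 of the alternatives run: 4 (from 8) in model against normal without model_327 and model_387, and 4 (from 0) in PGZ against model by limma voom. With 1 library left out the count against normal was 6 to 10 for model, 8 to 9 for PGZ and 7 to 8 for DLE. With no filter on low counts, which adds genes to the adjustment, adjusted p was 0.056 for Mup10 and 0.054 for Mup17 in model, 0.079 for Mup20 and 0.1 for Mup12 in PGZ, and 0.061 for Mup17 in DLE against normal.

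Counts of all genes called moved far more, and the cause was not tested. In model against normal (1429) they were 952 with no filter, 226 in a fit of 2 groups, 2440 by DESeq2, 4325 by voom, 438 without model_327 and model_387, and 505 to 2910 with 1 library left out. In PGZ against model (2) they were 1 in a fit of 2 groups, 135 by DESeq2, 1637 by voom, 4 without model_327 and model_387, and 1 to 5. In DLE against model (0) they were 386 by DESeq2, 12 by voom, 1 without model_327 and model_387, and 0 to 511. In DLE against PGZ (1) they were 12 in a fit of 2 groups, 65 by DESeq2, 663 by voom and 0 to 11. In PGZ against normal (1926) they were 4363, 3004, 6333 and 850 to 1880 in the same order, and in DLE against normal (557) 1071 by DESeq2, 1512 by voom and 331 to 522.

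Log2 fold changes changed sign only among db/db groups, where edgeR called none. In PGZ against model, Mup17 was 0.03 with upper quartile and 0.11 with library total scaling. In DLE against PGZ, Mup2 was -0.05 with library total scaling and -0.46 by voom, and Mup3 was -0.13 by voom. With 1 library left out the ranges were, in PGZ against model, Mup7 -1.05 to 0.51, Mup12 -2.59 to 1.13 and Mup17 -0.43 to 0.52. In DLE against model they were Mup1 -1.67 to 0.33, Mup7 -1.43 to 0.05, Mup12 -2.76 to 0.79 and Mup20 -1.67 to 0.20. In DLE against PGZ they were Mup2 -0.59 to 0.42, Mup3 -0.78 to 0.64, Mup6 -2.04 to 0.09, Mup7 -1.22 to 0.36, Mup10 -0.59 to 0.36, Mup12 -1.88 to 1.34 and Mup21 -0.80 to 0.13. The summed level kept its sign in all 6 comparisons under every alternative run, -4.69 to -4.08 for model minus normal with 1 library left out. It moved most with model_DLE_373 left out, to -1.62 (from -0.95) for DLE minus model and -1.29 (from -0.63) for DLE minus PGZ.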

Other observations

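Mup-ps16, a pseudogene of the array chosen after its values were seen, had means of 30 CPM in normal, 38.5 in model, 57 with PGZ and 63.9 with DLE, and was not called in model against normal (log2 fold change 0.36, SE 1.34, edgeR adjusted p = 0.89).

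The ratio of Mup7 to Mup3 reads varied within normal liver, at 0.993 in normal_346, 0.887 in normal_349, 0.551 in normal_409 and 0.152 in normal_376. That of Mup17 to Mup3 was 0.421, 1.15, 0.268 and 0.882 in the same libraries, so the library lowest in Mup7 was not the lowest in Mup17.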
